A study of Mus musculus with 9 samples.

Results

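The 9 genes described here lie outside xenobiotic metabolism and were followed across FICZ, tryptamine and control libraries of mouse hepatoma cells: Tbc1d16, Mpp2, Arhgap10, Tnxb, Txlnb, Ptpn14, Sbk1, Entpd2 and Fhl1. They are 9 of 28932 genes in the deposited tables, and 70 of 189660 transcript entries were assigned to them, of which 69 held a read. Entpd2 counts there with 1 entry, of 3 that belong to it by identifier. The 9 genes had been picked because their levels differed between ligand and control libraries in these same data. The differences between groups are therefore given as a description of these genes, with no p-value. Where the number of the 9 past a threshold is printed, it stands beside the share or the number over all genes or transcripts. Nothing is read from it. All 9 passed the filter on low counts.

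Total RNA was extracted from cells labelled Hepa 1 WT, a mouse hepatoma line, whose cell line label reads HC1C. The first group received 10 nM FICZ and another 50 uM tryptamine, and the last was the control, which 1 label calls untreated and the treatment protocol calls vehicle. All cells were harvested after 6 h, and each group holds 3 libraries. No label says whether the libraries of a group came from separate cultures, so the errors measure the spread between these libraries, which may be technical.

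The aryl hydrocarbon receptor (AhR) is a ligand-activated transcription factor that moves to the nucleus, pairs with ARNT and binds DNA at elements with the core GCGTG. FICZ forms from tryptophan under light and is a high-affinity ligand of the receptor. Tryptamine is the decarboxylation product of tryptophan, and the series title describes it as a proligand whose action needs monoamine oxidases. The 9 genes are not enzymes of drug metabolism. They encode regulators of small GTPases, scaffold and matrix proteins, a phosphatase, a kinase, a nucleotidase and a LIM-domain protein.

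Totals over genes lay between 11594795 reads, in control replicate 3, and 16715843 reads, in FICZ replicate 2, and 11875 to 12287 genes had at least 10 reads in a library. Control replicate 3 stood apart. Its levels correlated with those of the other 8 libraries at 0.954 to 0.960 across genes, against 0.987 or more among the others. Genes whose transcript is longer than 6000 nt were lower in it than in control replicates 1 and 2, by a median of -0.84 on the log2 scale over 1334 genes, and genes of up to 1000 nt were higher, by 0.60 over 1132 genes. The differences of the 9 genes from control, each on its most-read transcript, are given below with and without control replicate 3. Other results that include it are given without it only in part. Of the hepatoma markers looked at, Krt8 and Krt18 averaged 1940 and 2150 CPM (reads scaled per library to a common total), Alb 230 and Afp 135 CPM, while Apoa1, Ttr and Hnf4a held no read. The 6 hepatoma markers that passed the filter summed to 3940 to 4113 CPM in FICZ libraries, 4213 to 4388 CPM in tryptamine libraries and 4436 to 6270 CPM in control libraries, or 4436 to 4515 CPM in control replicates 1 and 2. All 6 had a lower mean with FICZ than in control, with a median log2 difference of -0.34, or -0.18 without control replicate 3. None passed an adjusted p of 0.05 in edgeR's quasi-likelihood test. At an unadjusted p under 0.05 there were 5, or 4 without that library, against 8.11% and 9.97% of all genes. With tryptamine all 6 were lower too, with a median of -0.17 and 1 at an unadjusted p under 0.05, against 5.15%. Without that library the tryptamine median was -0.05, and 2 of the 6 were higher. The part of these marker differences in the results below was not tested. Of 13 fibroblast and muscle markers, Col1a1 averaged 1190 and Dcn 347 CPM, and Lum, Myog and Ckm held no read. The summed level of the 7 that passed the filter was 1631 to 1755 CPM in FICZ libraries and 1631 to 1774 CPM in tryptamine libraries. In control libraries it was 1401 to 1702 CPM, or 1685 to 1702 CPM in control replicates 1 and 2. The 5 neural markers found averaged at most 0.0803 CPM, and 2 of 9 blood and endothelial markers passed the filter. Cyp1a1, the usual readout of the AhR, stood at 1022, 1035 and 951 CPM with FICZ, 674, 682 and 754 CPM with tryptamine and 63.9, 55.4 and 58.3 CPM in control.

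Of the 9 genes, 8 had higher means with both ligands than in control, and Fhl1 had lower means with both. The largest difference was that of Arhgap10, at 4.47-fold over control with FICZ and 3.08-fold with tryptamine. Tbc1d16 and Mpp2 stood highest with FICZ, at an intermediate level with tryptamine and lowest in control, and the libraries of the 3 groups did not overlap for either gene. Txlnb alone among the 9 stood higher with tryptamine than with FICZ in every library. In these bulk samples, fewer cells of a type and less RNA per cell cannot be told apart.

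**Figure D1:**
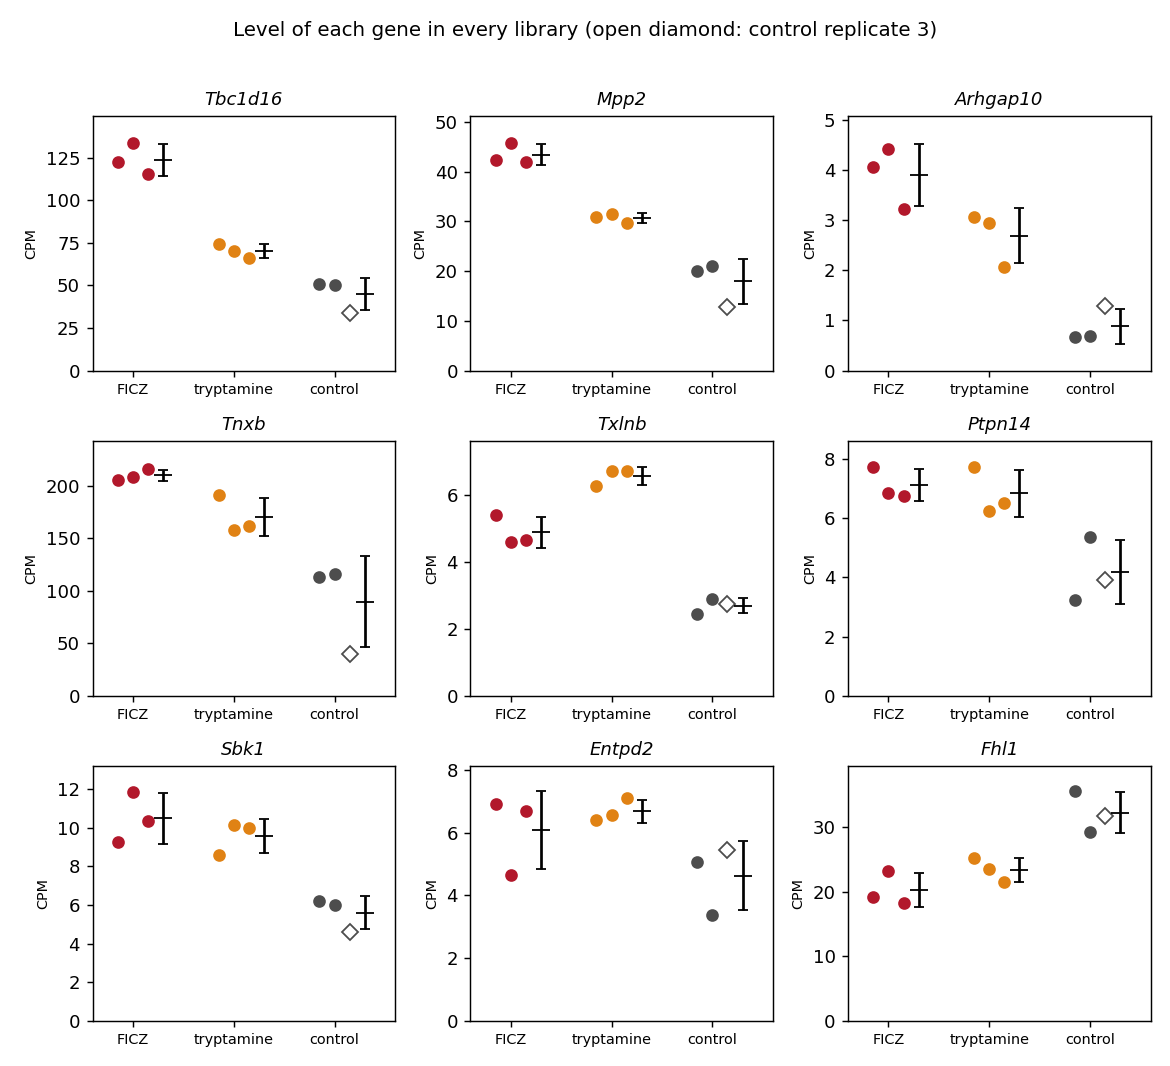
Level in CPM (vertical axes, each starting at 0) of the 9 genes in the 3 FICZ, 3 tryptamine and 3 control libraries. Points are libraries, the open diamond is control replicate 3, and bars give the mean and SD of a group. Tbc1d16 falls into 3 separate bands, at 115 to 134 CPM with FICZ, 66.0 to 74.4 CPM with tryptamine and 34.0 to 50.7 CPM in control, while the FICZ and control libraries of Entpd2 overlap.

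Tbc1d16 (gene ID 207592), a protein with a TBC domain that in human cells acts as a GTPase-activating protein for Rab4A and so bears on receptor recycling, was followed on the transcript NM_172443, of 6988 nt and 12 exons. It stood at 122, 134 and 115 CPM in the FICZ libraries, 74.4, 70.3 and 66.0 CPM in the tryptamine libraries, and 50.7, 50.4 and 34.0 CPM in the control libraries. Each FICZ library lay above each tryptamine library, and the tryptamine libraries in turn lay above all of control. The lowest of the control values is that of control replicate 3, which held 0.674 times the mean of control replicates 1 and 2. The log2 difference from control was 1.46 ± 0.15 (SE, n = 3 each) with FICZ and 0.64 ± 0.15 with tryptamine. These were 1.29 ± 0.090 and 0.47 ± 0.090 without control replicate 3. In the authors' deposited table the same transcript has log2 fold changes of 1.42 for FICZ over control and 0.59 for tryptamine over control.

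Arhgap10 (gene ID 78514), a GTPase-activating protein of the GRAF group with a BAR and a PH domain, had the lowest counts of the 9. Its transcript NM_030113, of 3038 nt and 23 exons, held 57, 74 and 47 reads with FICZ, 45, 38 and 32 reads with tryptamine, and 10, 10 and 15 reads in control. As CPM these are 4.06, 4.41 and 3.21 with FICZ, 3.06, 2.94 and 2.07 with tryptamine, and 0.676, 0.688 and 1.28 in control. The groups did not overlap, but the control level rests on few reads. The log2 difference from control was 2.16 ± 0.33 with FICZ and 1.62 ± 0.34 with tryptamine (SE, n = 3 each). Control replicate 3 was the highest control library for this gene, and without it the differences were 2.50 ± 0.40 and 1.96 ± 0.41. Several annotated antisense genes overlap Arhgap10 in GENCODE vM21, genes on the opposite strand also overlap Tbc1d16, Tnxb, Txlnb and Ptpn14, and whether the counts use strand is not given in the sources used here.

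Related regulators of small GTPases were looked at beside these genes. Of 37 listed genes with a TBC domain other than Tbc1d16, 30 could be tested, and none passed edgeR's quasi-likelihood test at an adjusted p under 0.05 in FICZ against control. Only 0.113% of all genes tested passed there, and 0.00808% in tryptamine against control. At such shares a list of this size would mostly hold none, so none passing says little, here and in the lists below. At an unadjusted p under 0.05 there were 2, against 8.11% of all genes tested, and 2 again without control replicate 3, against 9.97%. These shares stand beside each FICZ list below, and 5.15% beside tryptamine over all libraries. DESeq2's Wald test called 0 of the TBC-domain genes and 0 in each further list of related genes below. The TBC-domain genes had a median log2 difference of 0.11, against -0.01 over all genes, and without control replicate 3 it was 0.01. The smallest p among them was that of Tbc1d23, with a log2 difference of 0.41 ± 0.16 (SE), which was 0.24 ± 0.11 without control replicate 3. Of 45 listed GTPase-activating proteins related to Arhgap10, 32 could be tested and none passed, with 1 at an unadjusted p under 0.05, or 7 without control replicate 3. Their median log2 difference was 0.10, or -0.06 without it. Arhgap24 was 4.98, 7.86 and 5.67 CPM with FICZ, 4.76, 7.72 and 5.61 CPM with tryptamine, and 10.4, 8.05 and 9.47 CPM in control, for log2 differences of -0.58 ± 0.23 and -0.63 ± 0.24 from control. It thus lay on the lower side in its means, and its adjusted p was 0.601 with FICZ and 0.741 with tryptamine.

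Mpp2 (gene ID 50997) encodes a membrane-associated guanylate kinase, one of a family of scaffolds that hold receptors and adhesion molecules at the cell membrane. RefSeq places starts of its transcripts in the pair of 300-base windows below, from GRCm38.p6, each running from 250 bases before a start to 50 bases after it. They are shown because Mpp2 and Tbc1d16 ran most nearly parallel across the libraries of any pair among the 9 genes, with a Pearson's r of log2 CPM of 0.977. In all, 5 of the 9 genes matched the RefSeq windows, with 7 windows. No window was matched for Tbc1d16, Arhgap10, Txlnb and Sbk1. Capitals would mark GCGTG on either strand, and neither window holds it.
Mpp2 window 1, chr11:102088466-102088765, minus strand: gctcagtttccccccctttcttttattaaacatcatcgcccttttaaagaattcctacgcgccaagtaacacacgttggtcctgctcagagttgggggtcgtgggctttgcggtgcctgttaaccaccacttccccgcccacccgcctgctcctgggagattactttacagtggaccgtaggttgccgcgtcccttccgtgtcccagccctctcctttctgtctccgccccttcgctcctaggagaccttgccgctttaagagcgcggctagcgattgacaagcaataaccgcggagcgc
Mpp2 window 2, chr11:102082435-102082734, minus strand: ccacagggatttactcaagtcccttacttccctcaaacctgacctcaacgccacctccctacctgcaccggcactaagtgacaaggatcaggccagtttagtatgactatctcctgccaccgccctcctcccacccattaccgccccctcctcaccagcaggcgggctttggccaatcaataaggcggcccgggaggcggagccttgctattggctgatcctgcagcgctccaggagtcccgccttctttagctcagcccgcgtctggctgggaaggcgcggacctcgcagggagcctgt

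Mpp2 was followed on NM_016695, of 4087 nt and 13 exons. Its levels were 42.4, 45.9 and 42.0 CPM with FICZ, 30.9, 31.6 and 29.7 CPM with tryptamine, and 20.02, 21.0 and 12.8 CPM in control. As with Tbc1d16, no libraries of different groups overlapped, and control replicate 3 was the lowest, at 0.624 times the mean of the other control libraries. Against control the log2 difference was 1.27 ± 0.17 with FICZ and 0.77 ± 0.17 with tryptamine (SE, n = 3 each), and 1.08 ± 0.11 and 0.58 ± 0.11 without control replicate 3. In the authors' deposited lists of genes with higher transcripts, Mpp2 is on both the FICZ list of 81 genes and the tryptamine list of 22 genes. Of 21 other MAGUK scaffolds and their partners, 16 could be tested and none passed in FICZ against control, with 2 at an unadjusted p under 0.05, or 3 without control replicate 3. Mpp5, a scaffold of tight junctions, was 60.1, 63.7 and 71.5 CPM with FICZ, 59.1, 52.1 and 58.0 CPM with tryptamine, and 55.5, 51.7 and 26.3 CPM in control. Its log2 difference of 0.55 ± 0.22 with FICZ was 0.28 ± 0.097 without control replicate 3.

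Tnxb (gene ID 81877) encodes tenascin-X, a large glycoprotein of the extracellular matrix that associates with collagen fibrils and whose loss causes a form of Ehlers-Danlos syndrome in humans. The RefSeq window of Tnxb is shown as that of the gene with the highest CPM of the 9, and it holds no GCGTG.
Tnxb, chr17:34670285-34670584, plus strand: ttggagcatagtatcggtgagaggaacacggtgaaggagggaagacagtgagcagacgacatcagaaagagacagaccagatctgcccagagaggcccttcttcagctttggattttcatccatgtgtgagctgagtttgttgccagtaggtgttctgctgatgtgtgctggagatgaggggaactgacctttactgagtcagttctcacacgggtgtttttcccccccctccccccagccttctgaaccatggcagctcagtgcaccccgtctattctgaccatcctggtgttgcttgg

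The most-read transcript of Tnxb was ENSMUST00000055067, of 12345 nt and 42 exons, the longest among the 9 genes. It stood at 206, 208 and 216 CPM with FICZ, 191, 158 and 162 CPM with tryptamine, and 113, 116 and 39.3 CPM in control. Control replicate 3 lay far below the other controls, at 0.344 times their mean. The median gene with a transcript longer than 6000 nt was also lower there, as given above. Ptpn14, whose transcript has 10746 nt, held 0.911 times its mean in the other controls. Set against control, the log2 difference was 1.23 ± 0.30 with FICZ and 0.93 ± 0.30 with tryptamine, and 0.88 ± 0.079 and 0.57 ± 0.079 without control replicate 3. The control mean was 89.3 ± 43.3 CPM (SD, n = 3), against 114 CPM over control replicates 1 and 2. Of 19 listed tenascins and genes near Tnxb on the chromosome, 13 could be tested and none passed in FICZ against control, with 1 at an unadjusted p under 0.05, or 3 without control replicate 3. Atf6b, which lies in that neighbourhood and encodes a transcription factor of the endoplasmic reticulum stress response, was 97.4, 91.6 and 79.5 CPM with FICZ, 89.5, 90.7 and 78.2 CPM with tryptamine, and 71.4, 77.0 and 69.5 CPM in control, a log2 difference of 0.30 ± 0.11 with FICZ.

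Txlnb (gene ID 378431) encodes beta-taxilin, a coiled-coil protein described mainly in heart and skeletal muscle, of a family that binds syntaxins. On NM_138628, of 4457 nt and 10 exons, it stood at 5.41, 4.59 and 4.65 CPM with FICZ, 6.26, 6.72 and 6.71 CPM with tryptamine, and 2.44, 2.89 and 2.73 CPM in control. Every tryptamine library lay above every FICZ library, and every FICZ library above every control library. Control replicate 3 was at 1.03 times the mean of the other controls. The log2 difference from control was 0.86 ± 0.19 with FICZ and 1.29 ± 0.19 with tryptamine (SE, n = 3 each), and 0.87 ± 0.25 and 1.30 ± 0.25 without control replicate 3. Of the muscle markers, Des averaged 10.7 CPM, Actc1 held 2 reads over all 9 libraries, and Myog and Ckm held no read. Of 15 other taxilins and syntaxins, 14 could be tested and none passed in FICZ against control, with 0 at an unadjusted p under 0.05 with or without control replicate 3. In tryptamine against control 1 was at an unadjusted p under 0.05. Txlng, another taxilin, had log2 differences of -0.33 ± 0.17 with FICZ and -0.41 ± 0.17 with tryptamine, which were -0.06 ± 0.086 and -0.14 ± 0.087 without control replicate 3.

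Ptpn14 (gene ID 19250) encodes a non-receptor tyrosine phosphatase with a FERM domain that binds the Hippo pathway effector YAP. Its level on NM_008976, of 10746 nt and 19 exons, was 7.76, 6.85 and 6.77 CPM with FICZ, 7.75, 6.26 and 6.52 CPM with tryptamine, and 3.25, 5.37 and 3.92 CPM in control. The libraries of both ligands lay above those of control and overlapped each other. Control replicate 3 was at 0.911 times the mean of the other controls. Log2 differences from control were 0.77 ± 0.22 with FICZ and 0.71 ± 0.22 with tryptamine, and 0.73 ± 0.23 and 0.67 ± 0.24 without control replicate 3. Of 26 Hippo pathway genes and YAP targets, 21 could be tested and none passed with FICZ, with 2 at an unadjusted p under 0.05, or 6 without control replicate 3. Among them Ctgf, a target of YAP, had a log2 difference of -0.21 ± 0.091 with FICZ, and Axl, a receptor tyrosine kinase also counted among YAP targets, had 0.27 ± 0.12, or 0.13 ± 0.058 without control replicate 3. Of 16 other non-receptor tyrosine phosphatases, 11 could be tested and none passed with FICZ, with 2 at an unadjusted p under 0.05, or 1 of 12 without control replicate 3. Ptpn1, which acts on the insulin receptor, was 142, 154 and 142 CPM with FICZ, 136, 137 and 116 CPM with tryptamine, and 124, 129 and 108 CPM in control.

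Sbk1 (gene ID 104175) encodes a serine/threonine kinase with an SH3-binding region. Its level on NM_145587, of 4092 nt and 4 exons, was 9.25, 11.9 and 10.3 CPM with FICZ, 8.57, 10.1 and 10.0 CPM with tryptamine, and 6.22, 5.98 and 4.61 CPM in control. Both ligands stood above control in every library and overlapped each other. The log2 difference was 0.90 ± 0.18 with FICZ and 0.76 ± 0.18 with tryptamine, and 0.78 ± 0.19 and 0.64 ± 0.19 without control replicate 3. Of 10 listed kinases of related groups, 7 could be tested and none passed in the fit of all libraries, with 1 at an unadjusted p under 0.05 for FICZ, or 3 without control replicate 3. Without control replicate 3, Nuak1, an AMPK-related kinase named here after its values were seen, fell with FICZ by 0.34 on the log2 scale (SE 0.072, edgeR adjusted p = 0.0134). Over all libraries its log2 difference was -0.19 ± 0.13. Sik3, a salt-inducible kinase, had a log2 difference of 0.53 ± 0.19 with FICZ, or 0.35 ± 0.12 without control replicate 3.

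Entpd2 (gene ID 12496) encodes an ectonucleotidase that hydrolyses extracellular ATP. The tables name no entry as Entpd2 alone. They hold 21 entries under the joint name of Entpd2 and its neighbour Npdc1, which overlap on the same strand in GENCODE vM21. By identifier 3 of these belong to Entpd2 and 13 to Npdc1, and the RefSeq transcript NM_009849, of 1937 nt and 9 exons, stands for Entpd2 here. Of the 7 RefSeq windows of the 9 genes, that of Entpd2 is the one that holds GCGTG, once, on the minus strand from -88 to -84 counted from the start. It is shown for that reason, with the match in capitals as it reads on the plus strand.
Entpd2, chr2:25395624-25395923, plus strand: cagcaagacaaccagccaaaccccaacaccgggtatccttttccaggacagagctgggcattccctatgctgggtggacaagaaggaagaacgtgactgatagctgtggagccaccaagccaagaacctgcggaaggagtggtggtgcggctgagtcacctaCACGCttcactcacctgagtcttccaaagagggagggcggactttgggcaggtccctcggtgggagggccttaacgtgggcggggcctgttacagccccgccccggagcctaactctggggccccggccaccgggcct

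A match is a description of these letters. Of 32851 RefSeq windows of the same length, 32.4% hold GCGTG on either strand and 5.1% hold the longer TNGCGTG, which includes it. Entpd2 stood at 6.90, 4.65 and 6.70 CPM with FICZ, 6.39, 6.57 and 7.10 CPM with tryptamine, and 5.07, 3.37 and 5.46 CPM in control. FICZ replicate 2 lay below control replicates 1 and 3, so the FICZ and control libraries overlapped, whereas no tryptamine library was as low as any control library. The log2 difference from control was 0.39 with FICZ (95% interval -0.12 to 0.91) and 0.53 with tryptamine (95% interval 0.02 to 1.05). It thus had the smallest difference with FICZ among the 9 genes, and the interval includes 0. Without control replicate 3 the differences were 0.52 (0.01 to 1.02) and 0.66 (0.16 to 1.16), and the FICZ and control libraries still overlapped. Npdc1, named for neural proliferation and differentiation and given here because it shares the entries, had a log2 difference of -0.24 ± 0.17 (SE) with FICZ over all libraries and 0.01 ± 0.11 without control replicate 3. Its transcript NM_008721 held 637 reads in control replicate 3, against 502 and 511 reads in the other controls.

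Other ectonucleotidases and purine receptors numbered 26, of which 12 could be tested. None passed in either ligand against control, with 1 at an unadjusted p under 0.05 for FICZ and 2 for tryptamine. For FICZ there were 2 without control replicate 3. Entpd5, a related nucleotidase of the endoplasmic reticulum, was 36.6, 35.9 and 38.1 CPM with FICZ, 38.0, 35.5 and 45.4 CPM with tryptamine, and 30.0, 27.2 and 25.9 CPM in control. No ligand library overlapped a control library. Its log2 difference of 0.41 ± 0.12 with FICZ had an adjusted p of 0.586 in edgeR's quasi-likelihood test, and 0.52 ± 0.12 with tryptamine had one of 0.741. Without control replicate 3 these were 0.36 ± 0.12 (adjusted p = 0.202) and 0.47 ± 0.12 (adjusted p = 0.144).

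Fhl1 (gene ID 14199), a LIM-only protein of muscle and other tissues that binds cytoskeletal and signalling proteins, was the one gene of the 9 that stood lower with the ligands. On NM_001077361, of 2686 nt and 8 exons, it was 19.3, 23.3 and 18.3 CPM with FICZ, 25.2, 23.6 and 21.6 CPM with tryptamine, and 35.7, 29.4 and 31.8 CPM in control. Each library of either ligand lay below each control library, and the ligands overlapped. On the log2 scale it differed from control by -0.67 ± 0.14 with FICZ and -0.46 ± 0.14 with tryptamine (SE, n = 3 each), and -0.68 ± 0.13 and -0.48 ± 0.13 without control replicate 3. Control replicate 3 was at 0.978 times the mean of the other controls. Of 22 other LIM-only and LIM-PDZ genes, 12 could be tested and none passed with FICZ, with 2 at an unadjusted p under 0.05, or 1 without control replicate 3. Fhl2, of the same family, was 7.90, 5.90 and 7.86 CPM with FICZ, 6.73, 6.03 and 7.62 CPM with tryptamine, and 9.20, 9.42 and 13.1 CPM in control, log2 differences of -0.55 ± 0.20 and -0.63 ± 0.20. Its highest library was control replicate 3, and without it the differences were -0.37 ± 0.20 and -0.45 ± 0.20.

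**Figure D2:**
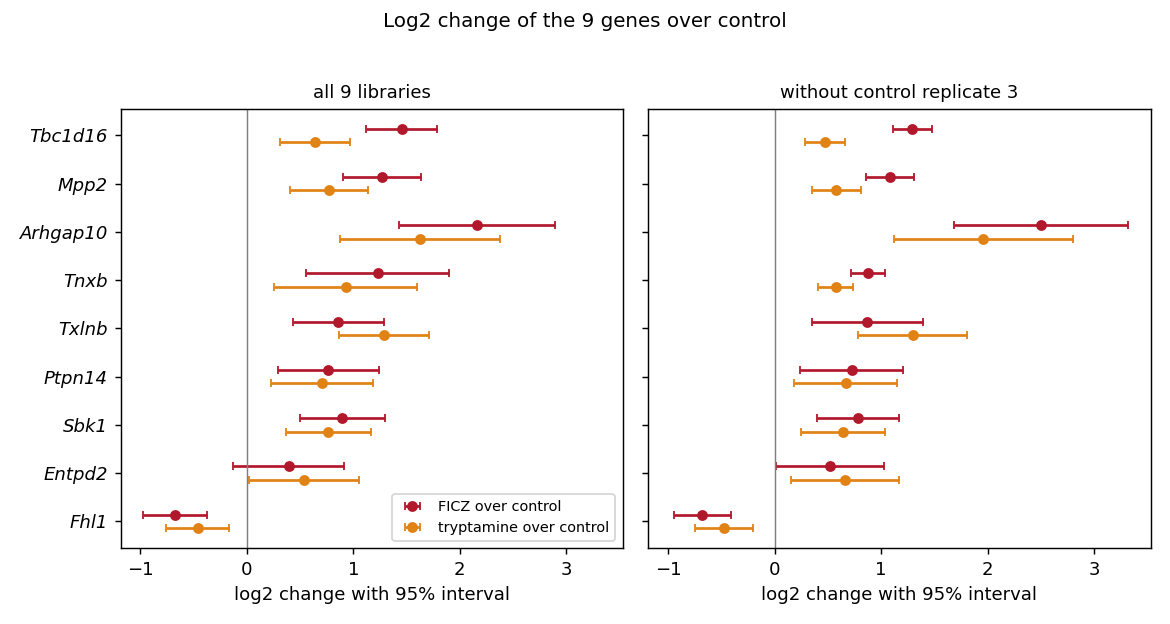
Log2 difference of each gene from control (horizontal axes), with FICZ in red and tryptamine in orange, in the fit of all 9 libraries on the left and without control replicate 3 on the right. Bars are 95% intervals. The interval of Tnxb with FICZ is 0.56 to 1.90 on the left and 0.71 to 1.04 on the right, and Fhl1 lies below 0 in both.

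Over the 12374 genes tested, 14 passed in FICZ against control, or 0.113%, all of them higher. Of the 9 genes, 3 were among them, namely Tbc1d16, Mpp2 and Arhgap10. At an unadjusted p under 0.05 there were 1004 genes, or 8.11%, and 8 of the 9. Across 18 alternatives Tbc1d16 was past the threshold in 17, Mpp2 in 9 and Arhgap10 in 6. Mpp2 and Arhgap10 were both short of it without any one FICZ library, without tryptamine replicate 1 or 3 and without control replicate 1, and Arhgap10 also without tryptamine replicate 2 or control replicate 2. Without control replicate 3, 101 of 12540 genes passed, or 0.805%, and 6 of the 9 were among them, with Tnxb, Sbk1 and the lower Fhl1 added. In tryptamine against control 1 gene passed, or 0.00808%, and 0 of the 9 did with edgeR's quasi-likelihood test, while 637 genes, or 5.15%, and all 9 of these were at an unadjusted p under 0.05. DESeq2's Wald test called 12 genes there, 3 of the 9 among them. Leaving out control replicate 3, 25 genes passed, or 0.199%, with 5 of the 9 (Tbc1d16, Mpp2, Arhgap10, Tnxb and Txlnb). FICZ libraries lay wholly above control for 7 of the 9, against 8.21% of all genes tested, and wholly below it for 1, against 7.41%. Tryptamine libraries lay wholly above control for 8, against 5.20% of genes, and wholly below for 1, against 4.87%. The genes had been picked on these contrasts, and the alternatives refit the same libraries, so the counts and tallies describe the choice.

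Levels between genes were compared per kilobase of transcript. With FICZ, Tbc1d16 and Tnxb came first, at 17.7 ± 1.33 and 17.0 ± 0.43 CPM per kb (SD, n = 3), followed by Mpp2 at 10.6 ± 0.52, Fhl1 at 7.55 ± 0.99, Entpd2 at 3.14 ± 0.64 and Sbk1 at 2.56 ± 0.32. Arhgap10 at 1.28 ± 0.20, Txlnb at 1.10 ± 0.10 and Ptpn14 at 0.663 ± 0.051 CPM per kb came last. Tbc1d16 did not differ from Tnxb beyond this spread, nor Arhgap10 from Txlnb, nor Entpd2 from Sbk1. In control, the order was led by Fhl1 at 12.0 ± 1.19 CPM per kb, ahead of Tnxb at 7.23 ± 3.51 and Tbc1d16 at 6.45 ± 1.36, which overlapped. Below them in mean came Mpp2 at 4.39 ± 1.10, Entpd2 at 2.39 ± 0.57, Sbk1 at 1.37 ± 0.21, Txlnb at 0.602 ± 0.052 and Ptpn14 at 0.389 ± 0.10 CPM per kb. The spread of Mpp2 overlapped those of Tnxb and Tbc1d16. These control values include control replicate 3, which for Tnxb held 0.344 times the mean of the other controls. With tryptamine Tnxb led at 13.8 ± 1.46 CPM per kb, then Tbc1d16 at 10.1 ± 0.61 and Fhl1 at 8.73 ± 0.69, followed by Mpp2 at 7.52 ± 0.24, Entpd2 at 3.45 ± 0.19, Sbk1 at 2.34 ± 0.21, Txlnb at 1.47 ± 0.059, Arhgap10 at 0.885 ± 0.18 and Ptpn14 at 0.637 ± 0.074. Arhgap10 was the lowest gene in control, at 0.290 ± 0.11 CPM per kb, within the spread of Ptpn14.

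FICZ was then set against tryptamine, at the doses given, which differ. These values use the FICZ and tryptamine libraries on which the genes had been picked, so they too are given without p-values. In the fit of all 9 libraries 0 of 12374 genes passed (0%), with 214 genes, or 1.73%, and 3 of the 9 at an unadjusted p under 0.05, and DESeq2's Wald test called 10 genes with 1 of the 9. Without control replicate 3, 17 of 12540 genes passed, or 0.136%, among them Tbc1d16 and Mpp2. Tbc1d16 was higher with FICZ by 0.82 on the log2 scale (95% interval 0.49 to 1.14), and by 0.82 (0.66 to 0.98) without control replicate 3. Its difference was the same size with and without that library, which belongs to neither group, while the square root of edgeR's common dispersion was 0.156 with it and 0.0748 in its absence. A fit of the 6 FICZ and tryptamine libraries alone gave 0.82 ± 0.078 (SE). Across the 18 alternatives the Tbc1d16 difference ran from 0.76 to 0.87.

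Mpp2 was higher with FICZ by 0.50 on the log2 scale (95% interval 0.14 to 0.86), and by 0.50 (0.31 to 0.70) without control replicate 3. The fit of the 6 libraries gave 0.50 ± 0.093 (SE), and the 18 alternatives ran from 0.46 to 0.52. Arhgap10 and Tnxb also had every FICZ library above every tryptamine library, which held for 4 of the 9 genes and 5.46% of all genes. Their intervals were -0.11 to 1.18 and -0.36 to 0.96. For Tnxb the interval without control replicate 3 was 0.16 to 0.44. Txlnb was lower with FICZ than with tryptamine by a log2 difference of -0.43 (95% interval -0.83 to -0.03). It was the 1 gene of the 9 with every FICZ library below every tryptamine library, as were 5.85% of all genes. For the other 4 genes the ligands overlapped, and the intervals were -0.40 to 0.51 for Ptpn14, -0.25 to 0.52 for Sbk1, -0.64 to 0.36 for Entpd2 and -0.51 to 0.09 for Fhl1.

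**Figure D3:**
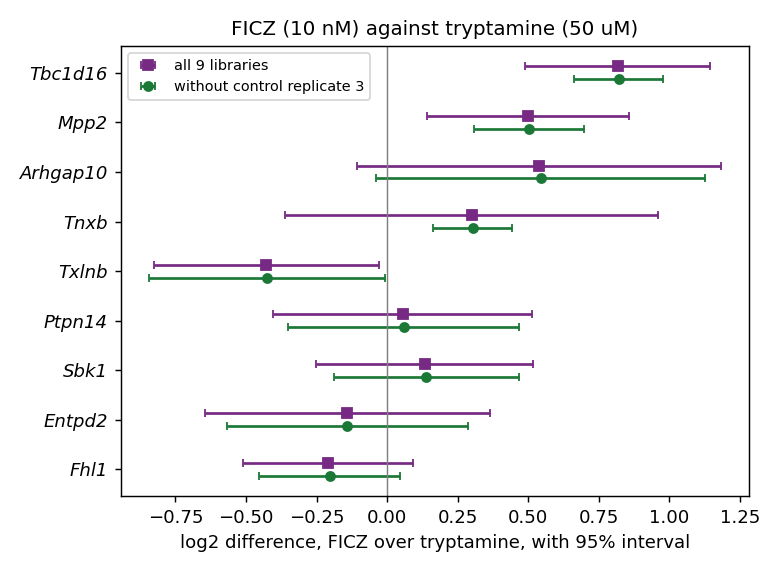
Log2 difference of FICZ (10 nM) over tryptamine (50 uM) for the 9 genes (horizontal axis), in the fit of all 9 libraries (squares) and without control replicate 3 (circles), with 95% intervals. Over all 9 libraries the interval is 0.49 to 1.14 for Tbc1d16, 0.14 to 0.86 for Mpp2 and -0.83 to -0.03 for Txlnb. Those of Ptpn14, Sbk1, Entpd2 and Fhl1 include 0. The genes had been picked on these libraries, so no interval is a test.

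The transcript entries of a gene share reads, since an alignment seems to have been counted for each transcript it overlaps, so they are not independent of each other. For Tbc1d16, 4 of 5 entries averaged at least 20 reads. The 1-exon entry AK165823, of 2805 nt, held between 43.3% and 47.3% of the reads of NM_172443 in 8 libraries, and 79.4% in control replicate 3. AK047555, of 2894 nt and 12 exons, held between 35.4% and 41.0% in those 8 libraries and 12.3% in control replicate 3. The entry with 1 exon was thus relatively higher and the one with 12 exons relatively lower in that control library. The log2 difference of FICZ from control was 1.11 for AK165823 and 1.80 for AK047555 over all libraries, and 1.25 and 1.41 without control replicate 3. Against tryptamine, which does not involve control libraries, the 4 entries had differences of 0.82 to 0.86.

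Tnxb showed the same library apart. AK136535, of 4653 nt and 21 exons, held between 42.1% and 49.9% of the reads of the full transcript in 8 libraries, and 99.6% in control replicate 3, where it held 459 of the 461 reads. NM_031176, of 9569 nt, and AK171696, of 4287 nt, were likewise at 98.9% and 97.4% there, against 73.6% to 76.6% and 38.8% to 46.6% in the others. The 6 Tnxb entries differed from control with FICZ by 0.95 to 1.20 over all libraries and by 0.86 to 0.91 without control replicate 3. AK172253 of Mpp2 held 63.3% to 68.6% of the reads of NM_016695 in 8 libraries and 52.7% in control replicate 3. The 7 entries of Mpp2 with at least 20 reads differed from control with FICZ by 1.23 to 1.68, and by 1.07 to 1.41 without control replicate 3.

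**Figure D4:**
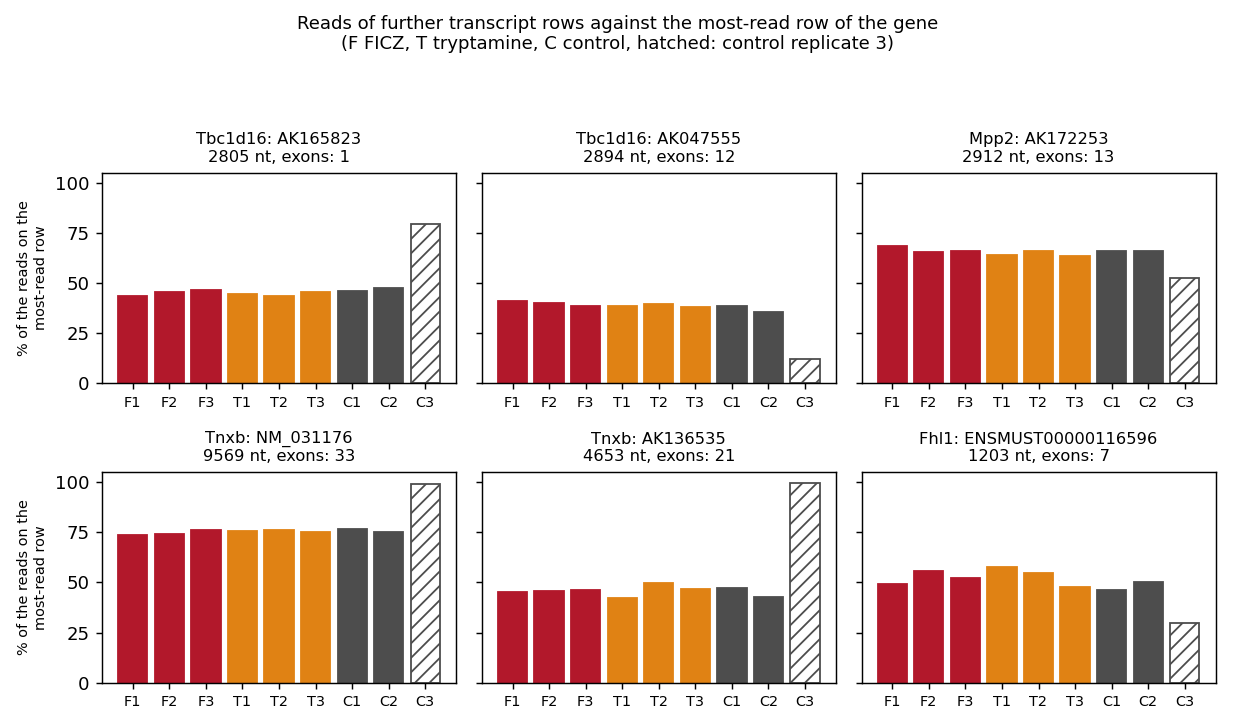
Reads of 6 further transcript entries of Tbc1d16, Mpp2, Tnxb and Fhl1 as a percentage of the reads of the most-read entry of the gene (vertical axes, from 0), per library, with FICZ, tryptamine and control from left to right and control replicate 3 hatched. AK136535 of Tnxb stands at 42.1% to 49.9% in 8 libraries and at 99.6% in control replicate 3, and AK047555 of Tbc1d16 at 12.3% in that library.

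All 14 entries of Fhl1 averaged at least 20 reads and lay below control with FICZ, by -0.77 to -0.25 on the log2 scale, and with tryptamine, by -0.57 to -0.17. The smallest difference with FICZ was that of ENSMUST00000151033, of 406 nt. The range with FICZ was -0.70 to -0.47 without control replicate 3. The 4 entries of Arhgap10 with at least 20 reads lay between 2.05 and 2.21 with FICZ, and the 2 of Sbk1 at 0.85 and 0.88. The most-read pair of Ptpn14 entries, NM_008976 and ENSMUST00000027898, held identical reads, and 4 of its 15 entries averaged at least 20 reads. Their log2 differences with FICZ ran from 0.49 to 1.02.

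Txlnb differed in which entries its reads fell on within the tryptamine group. AK052324, of 903 nt and 5 exons, held 57.7% of the reads of NM_138628 in tryptamine replicate 3, against 10.9% and 23.0% in tryptamine replicates 1 and 2. NM_001135859, of 3764 nt and 8 exons, held 51.0% in tryptamine replicate 3, against 85.9% and 85.1% in the others of its group. In counts, AK052324 held 60 reads in tryptamine replicate 3, against 10 and 20 in the others. The FICZ libraries had 29.9% to 39.7% on AK052324 and the control libraries 15.6% to 38.9%. The level of NM_138628 itself was alike in the 3 tryptamine libraries, at 6.26 to 6.72 CPM. Of its 10 entries 7 averaged at least 20 reads, and all 7 were lower with FICZ than with tryptamine, by -0.49 to -0.30 on the log2 scale. For AK052324, at -0.30, the sign rests on tryptamine replicate 3, since its 25, 23 and 27 reads with FICZ lay above the 10 and 20 reads of tryptamine replicates 1 and 2.

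**Figure D5:**
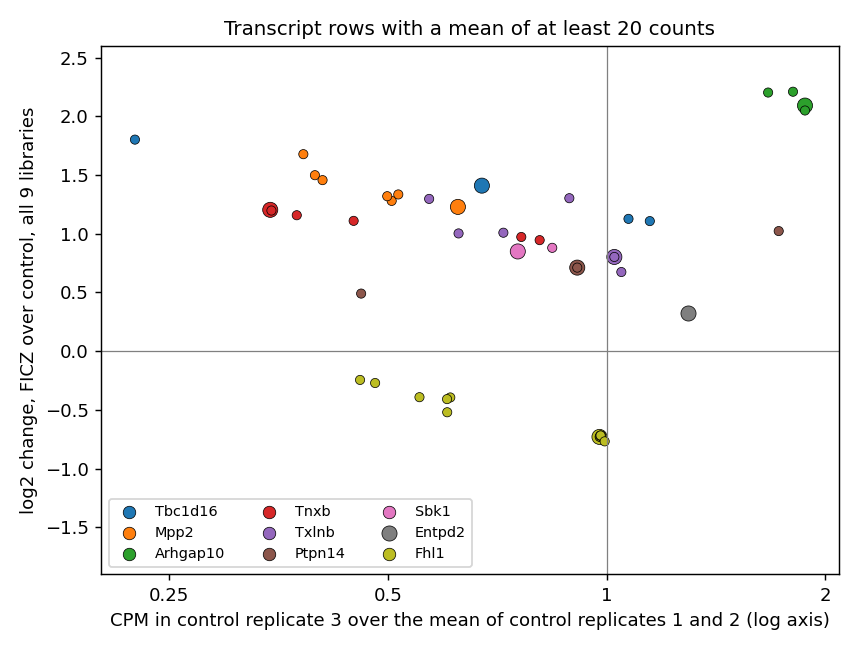
Each point is a transcript entry with a mean of at least 20 reads, coloured by gene, with the most-read entry of each gene drawn larger. The horizontal axis (log scale) gives its CPM in control replicate 3 over the mean of control replicates 1 and 2, and the vertical axis the log2 difference of FICZ from control over all 9 libraries. AK047555 of Tbc1d16 is at the far left, at 0.224 times, and Arhgap10 at the right, at 1.67 to 1.88 times.

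The genes were also ordered by likeness, as Pearson's r of log2 CPM over the 9 libraries with 11717 genes. These points share 3 treatments and the length-related difference of control replicate 3, so r is a description. Among the 9 genes, Tbc1d16 and Mpp2 were most alike, at 0.977, and Fhl1 ran against all the others, at -0.86 to -0.60. Of other genes, Xdh, xanthine dehydrogenase, was nearest to Tbc1d16 at 0.987, ahead of Por, the electron donor of cytochromes P450, at 0.974 and Cpox, an enzyme of heme synthesis, at 0.971. Mpp2 was nearest to Cldnd1 (0.989), Xdh (0.987) and Tnfrsf10b (0.986). Tnxb was nearest to Cpeb4 (0.993), Met (0.990) and Adam10 (0.987). Vamp7 was among the nearest to Sbk1, at 0.980. Lower values led for Txlnb, with Capn1 at 0.959, Ptpn14, with Suv39h2 at 0.956, Arhgap10, with Rnf39 at 0.943, Fhl1, with Sgsm3 at 0.939, and Entpd2, with Nck1 at 0.893.

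Over the 8 libraries without control replicate 3 the nearest genes changed for Tnxb, to Mndal (0.982), for Arhgap10, to Bbs5 (0.981), for Ptpn14, to Gm16517 (0.971), for Fhl1, to Idh3b (0.982), for Entpd2, to Rprd1a (0.980), and for Mpp2, to Adh7 (0.985). Xdh led again for Tbc1d16 (0.984) and Capn1 for Txlnb (0.956). Cyp1a1 was among the nearest to Arhgap10 in those libraries, at 0.969. Of 10 AhR target genes outside the 9, 9 could be tested. In edgeR's quasi-likelihood test 7 rose with FICZ and 1 with tryptamine, or 9 and 7 without control replicate 3. Over all genes 0.113% and 0.00808% passed, or 0.805% and 0.199% without control replicate 3. This list was chosen with earlier results of these data known, so its counts describe the choice. Over the 10 lists of related genes named with each member, 168 could be tested, 0 passed in any of the 3 comparisons of all libraries, and 14, 10 and 2 were at an unadjusted p under 0.05 in FICZ against control, tryptamine against control and FICZ against tryptamine. The shares over all genes were 8.11%, 5.15% and 1.73%. Over all genes only 0.113%, 0.00808% and 0% passed, so 0 of the 168 says little. Without control replicate 3, 1 of 169 passed, which is Nuak1, and 28, 13 and 16 were at an unadjusted p under 0.05, against 9.97%, 6.57% and 5.96% of all genes.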

How the data were processed

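The deposited tables hold, per the file headers, raw read counts of 189660 transcripts for each library, with the authors' p-values, adjusted p-values and log2 fold changes of 1 group over another. Deposited lists of higher genes give the authors' mean log2 fold change, and other numbers per list. DESeq is named in the submitters' processing notes without a version. No source used here gives the aligner, counting rule, strand use or genome build, and coordinates of the counted transcripts are left out. Another 18 columns of per-library normalized values were not used, and 9 count columns repeated between tables were identical.

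Each gene was represented by its transcript with the highest mean count, since transcripts share reads. Of 5653 entries naming several loci, 928 were assigned through RefSeq, and the 26853 entries without a gene, with 3.56 to 4.23% of counts, were left out. A single edgeR fit (version 4.0.16, R 4.3.3) took all 9 libraries (TMM scaling, filterByExpr, group as the only term, quasi-likelihood test), with Benjamini-Hochberg adjustment over all genes and a threshold of 0.05. Genes past it are said to have passed. SE is the log2 change over the square root of F, intervals are at 95%, and CPM uses effective library sizes. The fit was tested on simulated data with the same spread for all genes and no library like control replicate 3. That test does not cover data with such a library. Alternatives were sums over transcripts, each transcript alone, DESeq2 1.42.0 size factors and Wald test, other filters, a replicate block, each replicate left out and the 6 libraries compared. The 9 genes and all lists were chosen with earlier results of these data known. Other genes are named by likeness to a member (mean of at least 1 CPM, log2 CPM with a prior count of 2) or as those with the smallest p of a list. The gene nearest to Sbk1 is not reported here. A fit of each transcript without control replicate 3 was chosen after seeing the data. Promoter windows are RefSeq's on GRCm38.p6, and overlapping genes are from GENCODE vM21.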

Additional observations from a re-analysis of the deposited data

How the results depend on the processing

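Control replicate 3 and the small groups limit these results. Leaving out 1 library each gave 4 to 101 genes and 1 to 6 of the 9 for FICZ against control, 1 to 25 and 0 to 5 for tryptamine against control, and 0 to 17 and 0 to 2 for FICZ against tryptamine. The highest counts were those without control replicate 3. FICZ against control, with 14 genes and 3 of the 9, gave 4 and 1 with sums over transcripts, 26 transcripts and 2 with each transcript fitted alone, 54 and 6 with DESeq2's Wald test, 26 genes with no filter, and 2 and 0 in the fit of 6 libraries. Tryptamine against control, with 1 gene and 0 of the 9, gave 2 and 1 with sums, 4 transcripts with each fitted alone, 12 and 3 with the Wald test and 2 genes with no filter. FICZ against tryptamine, with 0 and 0, gave 10 and 1 with the Wald test and 17 and 2 in the fit of 6 libraries. Each transcript fitted alone without control replicate 3, an alternative chosen after seeing the data, gave 504 transcripts and 5 of the 9, 69 and 5, and 80 and 2. In both fits of single transcripts the 9 were counted on their most-read transcripts only. A gene can have several transcripts, so counts of transcripts do not compare with counts of genes. The cause was not tested. Deviations from group means correlated at -0.058 to 0.12 between libraries of equal replicate number. The same number correlated best in 4 of 18 pairs. For FICZ against tryptamine these correlations were 0.054, 0.044 and 0.12. Group means rest on 3 libraries and control replicate 3 stood apart, so this cannot decide whether libraries were paired. With the replicate block 4 genes and 1 of the 9 passed for FICZ against control, 1 and 0 for tryptamine against control, and 0 and 0 for FICZ against tryptamine.

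No difference of the 9 genes from control changed sign under any of the 18 alternatives. The genes had been picked for these differences in the same libraries, so this was largely set by the choice. FICZ against tryptamine changed sign for Ptpn14 without FICZ replicate 1 (-0.0081) and without tryptamine replicate 2 (-0.0024), and for Entpd2 without FICZ replicate 2 (0.024). Leaving out 1 library each gave -0.0081 to 0.16 for Ptpn14 and -0.24 to 0.024 for Entpd2. Control counts of 10 to 15 reads limit the level of Arhgap10.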

Other observations

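Markers of matrix-producing cells were uneven in this line. Col1a1, a chain of type I collagen, averaged 1190 CPM over the 9 libraries, while Col1a2, the other chain, held 11 reads in all. Col3a1, a chain of type III collagen, stood at 65.6, 65.7 and 67.1 CPM with FICZ, 58.0, 51.4 and 59.6 CPM with tryptamine and 49.0, 52.1 and 36.2 CPM in control. The FICZ libraries lay above all control libraries. Its log2 difference with FICZ was 0.53 ± 0.14 (SE, edgeR adjusted p = 0.498), and 0.39 ± 0.093 (adjusted p = 0.0454) without control replicate 3. Dcn, decorin, had a log2 difference of -0.31 ± 0.091 with FICZ (edgeR adjusted p = 0.574), and -0.24 ± 0.062 (adjusted p = 0.0847) without that library.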
